A study of Homo sapiens with 12 samples.

Results

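The 9 genes described here encode transcription factors that mark prostate and epithelial identity: HOXB13, FOXA1, SPDEF, GATA2, GATA3, ELF3, EHF, GRHL2 and SOX9. Their members on the array were all 27 probe sets that the platform annotation maps to these symbols, of 54675 probe sets in all, and each probe set is reported separately. A probe set is a group of short probes that together measure 1 transcript or a part of it. All 27 mapped to 1 gene alone, and 26 of them passed the filter on low signals and were tested. The members were 2 probe sets each for HOXB13, FOXA1 and SOX9, 3 each for GATA2, GATA3 and ELF3, 5 for SPDEF, 6 for EHF and 1 for GRHL2.

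The 12 arrays hold RNA of 22Rv1, an established line from a human prostate carcinoma, grown in RPMI-1640 medium with serum and antibiotics. The 4 groups of 3 arrays were vehicle-treated cells and cells treated for 4 h, 6 h or 16 h with a small-molecule inhibitor, which the series title ties to ONECUT2, a homeodomain transcription factor. The dose and the length of the vehicle treatment are not given in the sources used here. Compound and culture time therefore cannot be told apart in any comparison with vehicle. The sample titles of the 16 h arrays also lack a code element that the other titles carry. In comparisons with 16 h, compound, culture time and whatever that element marks cannot be told apart. The labels do not say whether replicates were separate cultures, so p-values reflect only how much these arrays varied.

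In the prostate, FOXA1, a forkhead factor able to open compacted chromatin, and GATA2 and HOXB13 share many binding regions with the androgen receptor and shape which genes it turns on. SPDEF, ELF3 and EHF belong to the branch of the ETS family that is restricted to epithelia. GRHL2 maintains genes of epithelial junctions, GATA3 sustains luminal differentiation, and SOX9 acts in progenitor cells of the developing prostate and in many other tissues.

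The cell line label was checked against marker genes. All 7 measured markers of prostate luminal epithelium were above the highest unspiked bacterial control on all arrays, among them KRT18 at a log2 signal of 11.23 to 11.56 and KLK3 at 3.59 to 4.39. All 3 measured basal markers, KRT5, KRT14 and KRT15, were at or below that control on all arrays. On the 16 h arrays the log2 of the summed fibroblast marker signal was 6.63 to 7.05, against 5.61 to 5.91 on vehicle arrays. The 6 markers did not move one way: between vehicle and 16 h the mean of COL1A1 went from 3.77 to 5.82 and that of LUM from 4.10 to 5.35, while DCN went from 3.44 to 2.85 and COL3A1 from 2.43 to 2.06. COL1A2 and PDGFRB were at or below the control on all 12 arrays. Of 4 measured neuroendocrine markers, ENO2 (7.38 to 7.84) and SYP (3.15 to 3.90) were above the control on all arrays and CHGA and INSM1 at or below it on all. The log2 of their summed signal was 7.82 to 7.95 on vehicle arrays and 7.50 to 7.60 at 16 h. The 18S ribosomal RNA control lay below its vehicle mean at 4 h and 6 h (log2 differences -0.64 and -0.98) and above it at 16 h (1.44). For ACTB, the 3' control probe set exceeded the 5' one by a log2 value of 2.80 ± 0.07 (SD, n = 3) with vehicle and 4.09 ± 0.09 at 16 h, while the 4 h and 6 h arrays gave 2.68 ± 0.09 and 3.02 ± 0.34. The same measure for GAPDH was -0.46 with vehicle and -0.50, -0.51 and -0.43 at the 3 treatment times in order, changes of at most 0.05 in size. The part of the 18S, ACTB and marker differences in the results below was not tested.

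At 16 h, 8 of the 9 genes had a probe set that changed. ELF3 rose on all 3 of its probe sets, and HOXB13, FOXA1, SPDEF, GATA2, GATA3, EHF and SOX9 fell on at least 1. GRHL2 did not pass the test. Of the 26 tested probe sets, 3 rose and 13 fell, which is 61.5% called where 39.7% of all 27306 tested probe sets were called (limma, adjusted p below 0.05, two-sided). Rises made up 23.0% and falls 16.7% of all tested probe sets, or 6286 and 4567 probe sets. Under median centring of the arrays those were 4904 and 5881, while the members still gave 3 rises and 13 falls, as they did under quantile normalisation. The median log2 change of the tested member probe sets was -0.23, beside 0.04 for all tested probe sets. Among the 17 members whose mean signal was above the 75th percentile, 16 were called when only such probe sets were tested, where 56.3% of all probe sets of that class were called.

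At 4 h only ELF3, SPDEF and SOX9 had called probe sets, 2 rises in ELF3 and 1 fall each in SPDEF and SOX9, so 4 of 26 where 0.293% of all tested probe sets were called, 0.168% as higher and 0.125% as lower. Under median centring 3 members rose and none fell, while the split over all probe sets went from 46 higher and 34 lower to 76 and 22. Leaving out 4 h replicate 3 removed all 4 calls, and leaving out vehicle replicate 1, vehicle replicate 3 or 4 h replicate 2 left 1, 2 and 2. At 6 h a single probe set, of FOXA1, fell, where 0.681% of all probe sets were called, 0.0476% as higher and 0.634% as lower. Between vehicle and 4 h the arrays did not overlap for 17 of the 26 tested members, and for 18.1% of all tested probe sets. The same counts were 13 and 17.0% at 6 h and 18 and 49.0% at 16 h.

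**Figure D1:**
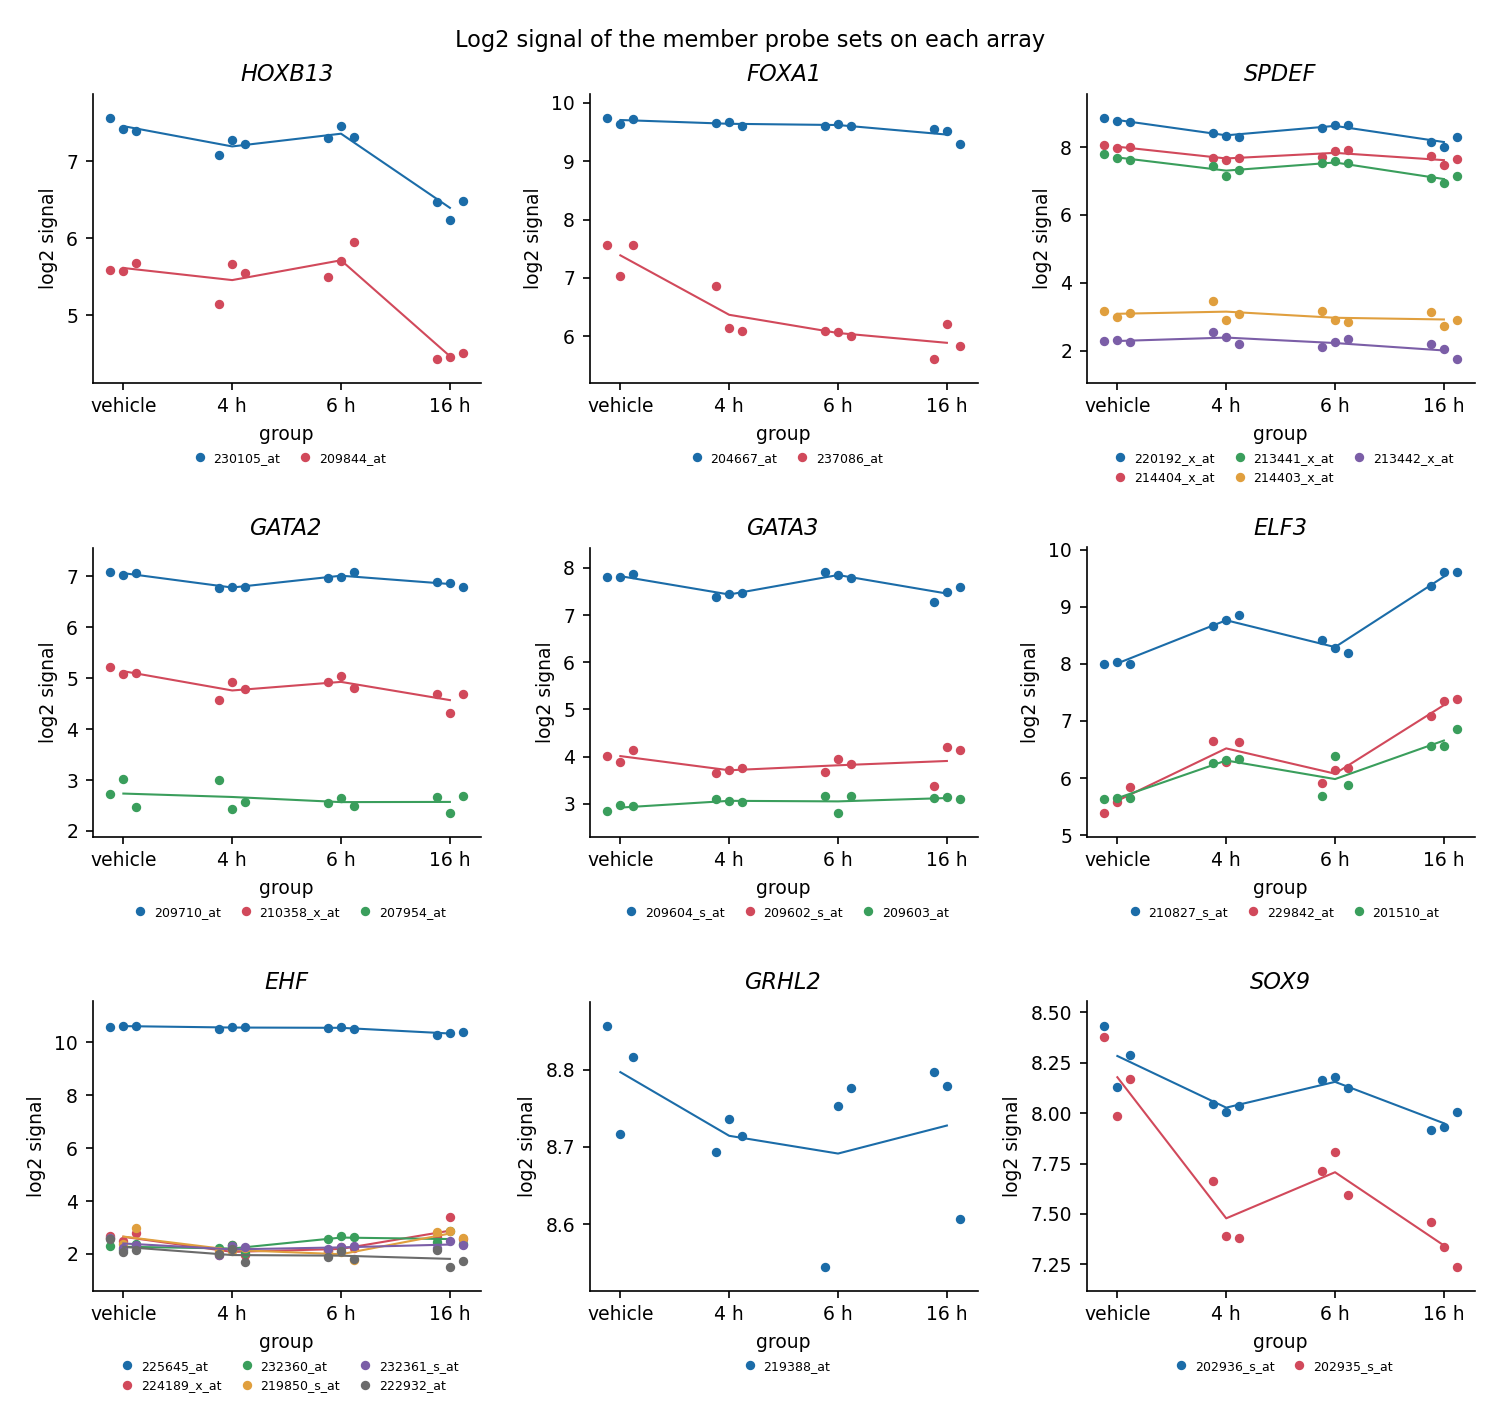
Log2 signal (vertical axes, scaled separately for each gene) of every probe set of the 9 genes on each array, by group; each point is 1 array, each colour 1 probe set, and lines join group means. The 16 h arrays of HOXB13 lie between 4.43 and 6.48, below the arrays of the other groups for the same probe set, and those of ELF3 lie above theirs.

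HOXB13, a homeobox factor of the posterior body axis that is retained in adult prostate epithelium, was lower at 16 h on both of its probe sets. The signal of 230105_at was 7.57, 7.42 and 7.39 on vehicle arrays, 7.08, 7.28 and 7.23 at 4 h, 7.31, 7.46 and 7.32 at 6 h, and 6.47, 6.24 and 6.48 at 16 h. The 16 h arrays were the lowest and overlapped with no other group. The 4 h arrays were also below all vehicle arrays, whereas the 6 h arrays overlapped with them. HOXB13 fell 2.09-fold by this probe set (log2 change -1.06 ± 0.09 SE, limma adjusted p = 5.37e-06, n = 3 per group).

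The second HOXB13 probe set, 209844_at, read 5.59, 5.57 and 5.68 on vehicle arrays, 5.15, 5.67 and 5.55 at 4 h, 5.50, 5.70 and 5.95 at 6 h, and 4.43, 4.45 and 4.51 at 16 h. It gave a 2.22-fold fall at 16 h (log2 change -1.15 ± 0.13 SE, limma adjusted p = 4.83e-05, n = 3 per group), with the earlier groups overlapping one another. The difference between the pair of HOXB13 probe sets on the same array was 1.72 to 1.98 on vehicle arrays and 1.79 to 2.03 at 16 h, so both reported a fall of like size. At 4 h and 6 h neither HOXB13 probe set passed. The 95% intervals of the log2 difference from vehicle for 230105_at were -0.46 to -0.06 at 4 h and -0.30 to 0.10 at 6 h. The level at 16 h was also below that at 6 h (log2 difference -0.96 ± 0.09 SE, limma adjusted p = 1.23e-05) and that at 4 h (-0.80 ± 0.09, adjusted p = 5.47e-05).

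FOXA1 was measured by a pair of probe sets that differed in how they moved. By 204667_at the signal was 9.75, 9.64 and 9.73 on vehicle arrays, 9.65, 9.67 and 9.60 at 4 h, 9.61, 9.64 and 9.60 at 6 h, and 9.55, 9.52 and 9.29 at 16 h. The groups lay close together, and only the 16 h arrays were all below the vehicle arrays. The fall at 16 h was 1.19-fold (log2 change -0.25 ± 0.08 SE, limma adjusted p = 0.0243, n = 3 per group). Omitting vehicle replicate 1 or 3 or 16 h replicate 3 ended that call (adjusted p = 0.0723, 0.062 and 0.0891). So did testing with no filter (limma adjusted p = 0.0543) or with only the groups compared (0.0872).

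By 237086_at the FOXA1 signal was 7.56, 7.03 and 7.57 on vehicle arrays, 6.87, 6.15 and 6.10 at 4 h, 6.09, 6.07 and 6.01 at 6 h, and 5.62, 6.21 and 5.84 at 16 h. Every treated array was below every vehicle array. The log2 difference from vehicle was -1.02 ± 0.21 SE at 4 h, which did not pass (limma adjusted p = 0.0974). The signal fell 2.51-fold at 6 h (-1.33 ± 0.21, adjusted p = 0.0245) and 2.82-fold at 16 h (-1.50 ± 0.21, adjusted p = 0.0002). The levels at 4 h, 6 h and 16 h did not differ from each other past the threshold. Omitting any of 5 arrays ended the 6 h call, with adjusted p = 0.105 and 0.103 for vehicle replicates 1 and 3, and 0.06, 0.0897 and 0.107 for 6 h replicates 1, 2 and 3. A fit with only the groups compared ended it too (limma adjusted p = 0.107).

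On the same array, the signal of 204667_at exceeded that of 237086_at by 2.16 to 2.61 on vehicle arrays, 2.79 to 3.52 at 4 h, 3.52 to 3.59 at 6 h and 3.32 to 3.93 at 16 h. The change in this difference was 0.95, 1.24 and 1.25 (exact two-sided permutation p = 0.1 each, the smallest that 3 arrays against 3 allow). Probe set pairs of other genes reached this p too, as given with SOX9 below. Which part of the FOXA1 locus 237086_at matches is not given in the sources used here. At 6 h, falls were called for 1.40% (at 4 h, 0.228%) of 10073 named probe sets that were not the brightest of their gene, and for 0.0791% of the 12635 brightest ones, and the FOXA1 call belongs to the first kind. On the 6 h arrays the 18S control was lower than on vehicle arrays by 0.98, and its part in this pattern was not tested.

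The bases before the FOXA1 start site are shown because FOXA1 binds forkhead motifs itself. Any part of these bases in the unequal falls of the FOXA1 probe sets was not tested. The window is chr14:37595250-37595499 (GRCh38.p14, minus strand), the 250 bases before the start in the RefSeq promoter table, printed 5' to 3' with a forkhead match in capitals.
FOXA1 promoter: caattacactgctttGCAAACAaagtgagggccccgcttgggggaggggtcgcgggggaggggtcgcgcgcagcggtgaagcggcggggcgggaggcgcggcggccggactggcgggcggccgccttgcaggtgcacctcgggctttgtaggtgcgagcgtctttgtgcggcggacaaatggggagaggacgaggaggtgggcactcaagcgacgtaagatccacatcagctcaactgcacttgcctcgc
The capitals are the reverse complement of TGTTTGC and begin 235 bases before the start. Of all 35116 promoter windows in the table, 3.23% held this motif on either strand.

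GATA2, a zinc finger factor that acts with the androgen receptor and FOXA1, was modestly lower at 16 h on both of its probe sets with clear signal. By 209710_at the signal was 7.09, 7.02 and 7.07 on vehicle arrays, 6.76, 6.78 and 6.78 at 4 h, 6.96, 6.98 and 7.09 at 6 h, and 6.88, 6.87 and 6.79 at 16 h. The 4 h and 16 h arrays were below all vehicle arrays, and the 6 h arrays overlapped with them. At 16 h it fell 1.16-fold (log2 change -0.21 ± 0.06 SE, limma adjusted p = 0.0196), which no longer passed when vehicle replicate 1 (0.058) or 16 h replicate 3 (0.0621) was left out. With no filter (limma adjusted p = 0.059) or with only the groups compared (0.0707) this fall did not pass either. The 4 h difference of -0.28 ± 0.06 did not pass (adjusted p = 0.117).

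By 210358_x_at the GATA2 signal was 5.21, 5.09 and 5.11 on vehicle arrays, 4.56, 4.91 and 4.79 at 4 h, 4.93, 5.04 and 4.81 at 6 h, and 4.69, 4.32 and 4.69 at 16 h. All treated arrays were below all vehicle arrays. It fell 1.48-fold (log2 change -0.57 ± 0.12 SE, limma adjusted p = 0.00248). Names ending in _x_at mark probe sets that can bind related transcripts. The dim 207954_at ranged from 2.36 to 3.01 over all arrays, its groups overlapped, and it passed in no comparison.

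SPDEF, a prostate-derived ETS factor of luminal and secretory cells, was lower at 16 h on its 3 probe sets with clear signal. By 220192_x_at the signal was 8.87, 8.77 and 8.75 on vehicle arrays, 8.42, 8.32 and 8.29 at 4 h, 8.55, 8.66 and 8.66 at 6 h, and 8.15, 8.01 and 8.28 at 16 h. All treated arrays were below all vehicle arrays, the 16 h arrays were the lowest, and the 6 h arrays lay between vehicle and 4 h. SPDEF fell 1.57-fold at 16 h (log2 change -0.65 ± 0.08 SE, limma adjusted p = 8.5e-05).

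At 4 h the same SPDEF probe set fell 1.37-fold (log2 change -0.45 ± 0.08 SE, limma adjusted p = 0.0483), close to the threshold. This call was lost in 10 of 15 alternatives, among them leaving out vehicle replicate 1 (0.201) or 3 (0.117) or 4 h replicate 1 (0.0791), 2 (0.22) or 3 (0.222). The probe sets 214404_x_at and 213441_x_at differed from vehicle by -0.35 ± 0.08 and -0.39 ± 0.09 at 4 h without passing (adjusted p = 0.135 and 0.12). At 16 h they fell 1.32-fold and 1.56-fold (adjusted p = 0.00296 and 0.000192). The remaining 214403_x_at and 213442_x_at had dim signals of 2.73 to 3.46 and 1.76 to 2.55 and did not pass against vehicle at any time. All 5 SPDEF probe sets are of the _x_at class.

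The SPDEF window is printed beside that of ELF3 below, because the pair are related ETS factors that moved in opposite directions. It is chr6:34556330-34556579 (GRCh38.p14, minus strand, RefSeq), 5' to 3', with a match to the ETS core AGGAAG in capitals.
SPDEF promoter: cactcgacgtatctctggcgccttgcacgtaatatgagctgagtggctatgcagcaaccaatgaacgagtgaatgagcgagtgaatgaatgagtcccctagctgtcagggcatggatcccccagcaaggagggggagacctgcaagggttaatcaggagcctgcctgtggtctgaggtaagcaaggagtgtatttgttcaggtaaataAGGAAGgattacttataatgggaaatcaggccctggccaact
The match begins 42 bases before the start, and 28.7% of all promoter windows held this short motif on either strand.

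ELF3, an ETS factor of differentiating epithelia that also responds to inflammatory and stress signals, was the only one of the 9 genes that rose against vehicle. By 210827_s_at the signal was 7.999, 8.03 and 7.99 on vehicle arrays, 8.67, 8.76 and 8.86 at 4 h, 8.42, 8.27 and 8.18 at 6 h, and 9.36, 9.61 and 9.61 at 16 h. No group overlapped with another, and the order from low to high was vehicle, 6 h, 4 h and 16 h. ELF3 rose 1.69-fold at 4 h (log2 change 0.76 ± 0.09 SE, limma adjusted p = 0.00691) and 2.87-fold at 16 h (1.52 ± 0.09, adjusted p = 3.44e-07). With 4 h replicate 3 left out the 4 h adjusted p was 0.0516.

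By 229842_at the ELF3 signal was 5.40, 5.58 and 5.84 on vehicle arrays, 6.65, 6.27 and 6.64 at 4 h, 5.92, 6.14 and 6.17 at 6 h, and 7.09, 7.35 and 7.38 at 16 h, in the same order of groups. It rose 1.89-fold at 4 h (log2 change 0.92 ± 0.14 SE, limma adjusted p = 0.0194) and 3.19-fold at 16 h (1.67 ± 0.14, adjusted p = 3.59e-06). The 4 h rise did not pass with vehicle replicate 1 (0.0891), 4 h replicate 1 (0.0692) or 4 h replicate 3 (0.119) left out. Nor did it pass with only the groups compared (limma adjusted p = 0.116). By 201510_at the signal was 5.63 to 5.66 on vehicle arrays, 6.26 to 6.34 at 4 h and 6.56 to 6.85 at 16 h. Its values of 5.69, 6.38 and 5.88 at 6 h were spread more widely than in the other groups. By it ELF3 rose 2.01-fold at 16 h (log2 change 1.01 ± 0.15 SE, adjusted p = 0.000236), while its 4 h difference of 0.66 ± 0.15 did not pass (adjusted p = 0.113).

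At 6 h the ELF3 differences from vehicle were 0.29 ± 0.09, 0.47 ± 0.14 and 0.33 ± 0.15 for the 3 probe sets, and none passed (limma adjusted p = 0.201, 0.147 and 0.397). The 6 h level of 210827_s_at was lower than the 4 h level by a log2 difference of -0.47 ± 0.09 without overlap, which did not pass either (adjusted p = 0.204). The 16 h level of that probe set was above those at 4 h and 6 h (log2 differences 0.76 ± 0.09 and 1.23 ± 0.09, adjusted p = 7.9e-05 and 1.85e-06).

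The ELF3 window is chr1:202010337-202010586 (GRCh38.p14, plus strand, RefSeq), 5' to 3', with a TATA box sequence in capitals.
ELF3 promoter: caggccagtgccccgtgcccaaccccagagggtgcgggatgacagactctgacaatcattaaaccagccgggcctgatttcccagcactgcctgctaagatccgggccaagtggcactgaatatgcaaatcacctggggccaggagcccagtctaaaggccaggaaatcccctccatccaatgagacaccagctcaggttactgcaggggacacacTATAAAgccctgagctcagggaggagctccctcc
The letters TATAAA begin 34 bases before the start, and 10.7% of all promoter windows held them on either strand. This motif was added after the sequence had been seen. No match was found in the ELF3 window, on either strand, for the AP-1, CRE, GATA, forkhead and ETS motifs that were searched. The ONECUT motif ATCGAT, held by 0.655% of all windows, was in none of the 13 windows that the table gives for the 6 matched member genes. The same was true of its variant, spelled ATTGAT, which 5.58% of all windows held. A match or its absence describes these letters alone.

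EHF, an ETS factor of glandular epithelia, changed little by its probe set with clear signal. By 225645_at the signal was 10.60, 10.62 and 10.64 on vehicle arrays, 10.51, 10.60 and 10.59 at 4 h, 10.56, 10.58 and 10.52 at 6 h, and 10.28, 10.34 and 10.39 at 16 h. The 16 h arrays were the lowest, without overlap with any other group. EHF fell 1.21-fold at 16 h (log2 change -0.28 ± 0.06 SE, limma adjusted p = 0.00412), and the 4 h and 6 h differences were -0.05 ± 0.06 and -0.06 ± 0.06 (adjusted p = 0.81 and 0.796).

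The other 5 EHF probe sets ranged from 1.52 to 3.41 over all arrays, near the highest unspiked control, which was 1.87 to 2.28. One of them, 222932_at, missed the filter and was not tested. None of the 4 tested ones passed against vehicle, with a lowest adjusted p of 0.0577 for 219850_s_at at 6 h. That probe set and 224189_x_at were higher at 16 h than at 6 h, by log2 differences of 0.78 ± 0.14 and 0.69 ± 0.19 (limma adjusted p = 0.00121 and 0.0127), opposite to 225645_at. Without 16 h replicate 2, which read 3.41 for 224189_x_at against 2.65 and 2.58 on the other 16 h arrays, the 0.69 became 0.424 (adjusted p = 0.024). Signals so near the controls carry little information on the transcript.

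GATA3, a zinc finger factor of luminal and lymphoid cells, was lower at 16 h by its probe set with clear signal. By 209604_s_at the signal was 7.80, 7.80 and 7.88 on vehicle arrays, 7.39, 7.45 and 7.46 at 4 h, 7.92, 7.84 and 7.78 at 6 h, and 7.28, 7.49 and 7.59 at 16 h. The vehicle and 6 h arrays overlapped, as did the 4 h and 16 h arrays, and those pairs of groups were apart from each other. GATA3 fell 1.29-fold at 16 h (log2 change -0.37 ± 0.08 SE, limma adjusted p = 0.00438).

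The 4 h difference of GATA3 from vehicle was as large, -0.39 ± 0.08, and did not pass (limma adjusted p = 0.109). The 6 h level exceeded the 4 h level by 0.41 ± 0.08 (adjusted p = 0.226), and the 16 h level was below that at 6 h by a log2 difference of -0.39 ± 0.08, which passed (0.00323). The dimmer 209602_s_at had signals of 3.38 to 4.20 and 209603_at of 2.81 to 3.18 over all arrays. Neither passed in any comparison, and the 16 h differences from vehicle were -0.10 ± 0.18 and 0.20 ± 0.09.

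GRHL2, a grainyhead factor that keeps epithelial junction genes active, did not pass in any comparison. Its single probe set, 219388_at, read 8.86, 8.72 and 8.82 on vehicle arrays, 8.69, 8.74 and 8.71 at 4 h, 8.54, 8.75 and 8.78 at 6 h, and 8.80, 8.78 and 8.61 at 16 h. All groups overlapped with the vehicle group. The 95% interval of the log2 difference from vehicle was -0.26 to 0.10 at 4 h, -0.29 to 0.08 at 6 h and -0.25 to 0.11 at 16 h.

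SOX9, an HMG-box factor, was lower at 16 h on both of its probe sets, by unequal amounts. By 202935_s_at the signal was 8.38, 7.99 and 8.17 on vehicle arrays, 7.66, 7.39 and 7.38 at 4 h, 7.72, 7.81 and 7.60 at 6 h, and 7.46, 7.33 and 7.24 at 16 h. Every treated array was below every vehicle array, and the 4 h arrays overlapped with those of both later times. SOX9 fell 1.62-fold at 4 h by this probe set (log2 change -0.70 ± 0.11 SE, limma adjusted p = 0.0298) and 1.78-fold at 16 h (-0.83 ± 0.11, adjusted p = 0.00016).

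The SOX9 call at 4 h did not hold with vehicle replicate 1 (0.119) or 3 (0.113) or 4 h replicate 2 (0.152) or 3 (0.158) left out, or under median centring (0.0659). It was also lost with only the groups compared (limma adjusted p = 0.163). The 6 h difference was -0.47 ± 0.11 and did not pass (limma adjusted p = 0.0845). By 202936_s_at the signal was 8.43, 8.13 and 8.29 on vehicle arrays, 8.004 to 8.04 at 4 h, 8.12 to 8.18 at 6 h and 7.92 to 8.003 at 16 h. It fell 1.26-fold at 16 h (log2 change -0.33 ± 0.08 SE, adjusted p = 0.0054), with a 4 h difference of -0.26 ± 0.08 that did not pass (0.23). On the same array, 202936_s_at exceeded 202935_s_at by 0.06 to 0.14 on vehicle arrays, 0.38 to 0.65 at 4 h, 0.37 to 0.53 at 6 h and 0.46 to 0.76 at 16 h. Each change in this difference had an exact two-sided permutation p of 0.1, the smallest possible. That p was not particular to FOXA1 and SOX9. At 4 h it was also reached by pairs of SPDEF, GATA3, ELF3 and EHF probe sets, and at 6 h by SPDEF and EHF pairs. At 16 h pairs of SPDEF, GATA2, GATA3, ELF3 and EHF probe sets reached it.

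**Figure D2:**
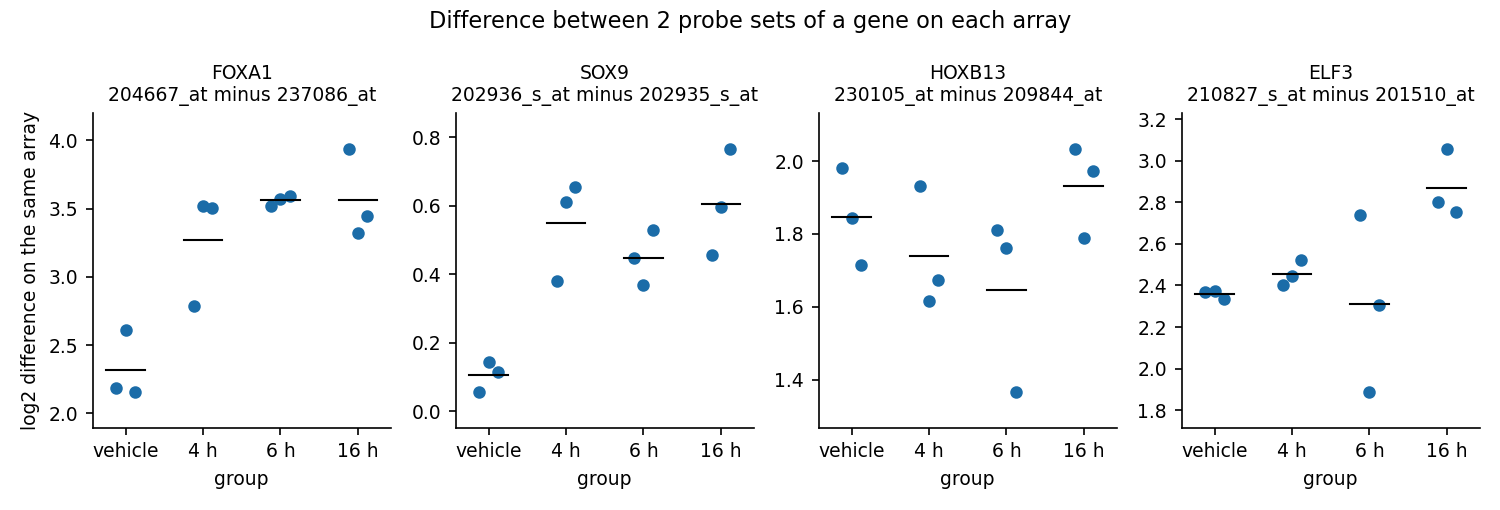
Log2 difference between the brightest and another probe set of the same gene on the same array (vertical axes, scaled separately), by group, for FOXA1, SOX9, HOXB13 and ELF3; each point is 1 array and bars are group means. The FOXA1 and SOX9 differences are larger on every treated array than on any vehicle array, from 2.79 against at most 2.61 for FOXA1, while those of HOXB13 overlap between the groups. For ELF3 the pair with the larger change at 16 h is drawn, 210827_s_at minus 201510_at. Its difference is 2.75 to 3.05 at 16 h against 2.33 to 2.38 with vehicle. The ELF3 pair with 229842_at, not drawn, overlaps between those groups.

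**Figure D3:**
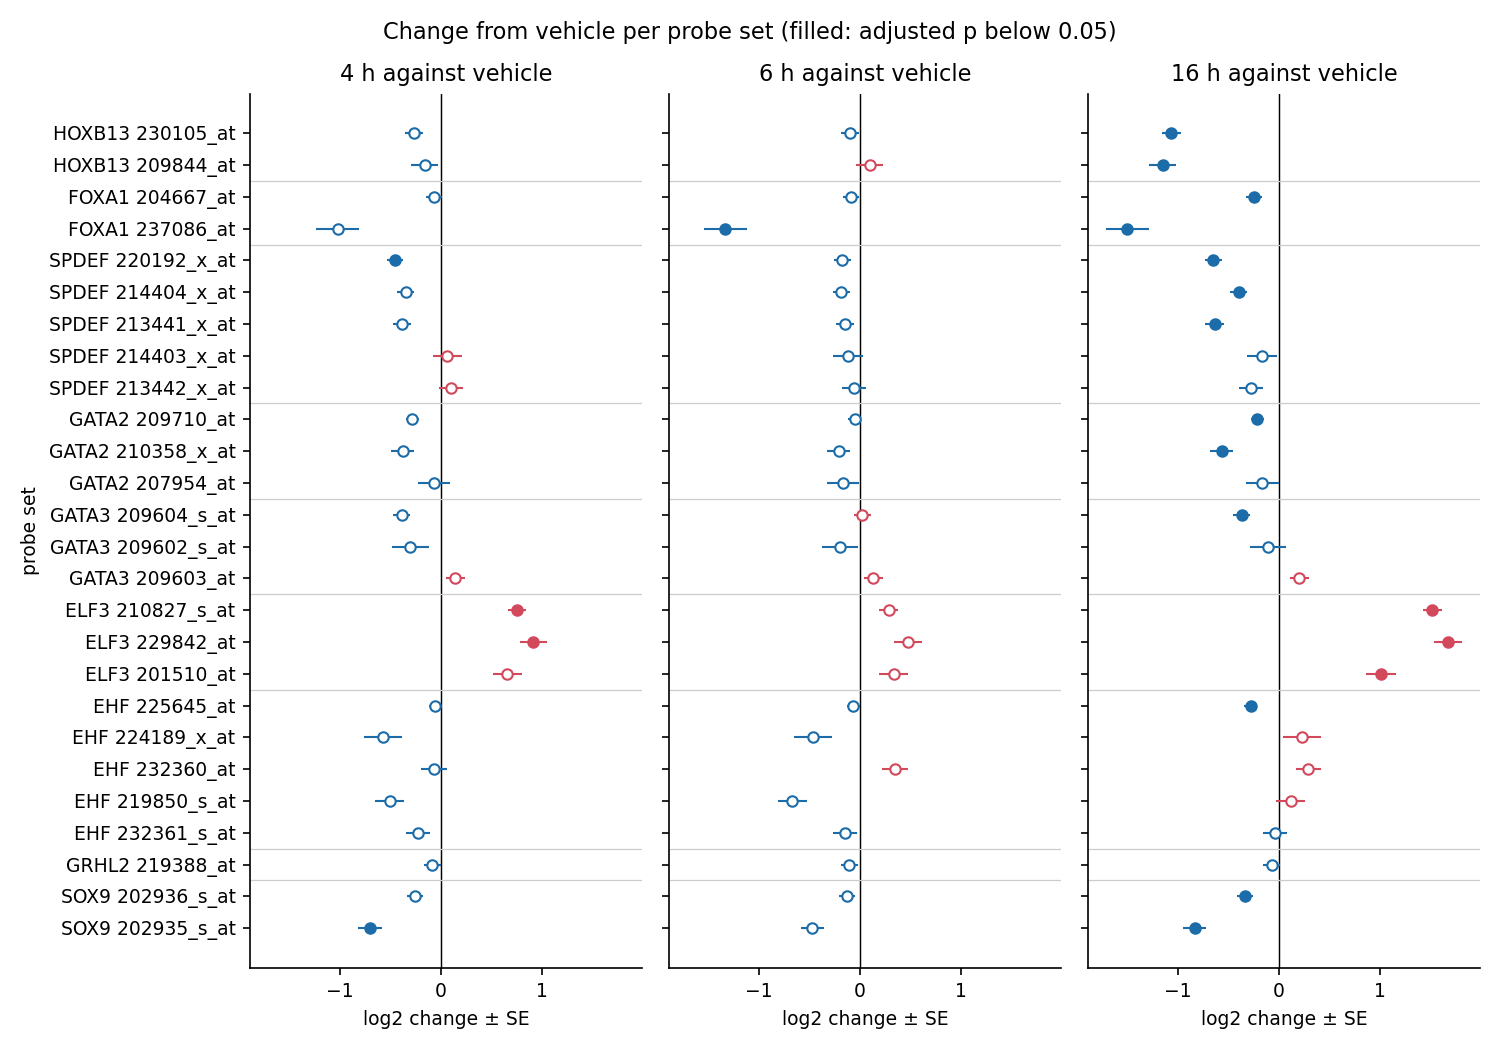
Log2 change from vehicle at 4 h, 6 h and 16 h (horizontal axes, with the SE of the model) for the 26 tested probe sets, with filled points where the adjusted p was below 0.05. The called probe sets number 4 at 4 h, 1 at 6 h and 16 at 16 h, and ELF3 is the only gene with rises among them.

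Between 4 h and 6 h no member passed: 0 of 26 by limma, with 8 at an unadjusted p below 0.05, while 0.0183% of all tested probe sets passed and 8.58% had such a p. The trended and robust prior gave 2 members and array weights 1. Between 4 h and 16 h, 10 of 26 members were called, 5 higher and 5 lower at 16 h, where 36.3% of all tested probe sets were called (22.0% higher, 14.3% lower). Median centring gave 4 higher and 8 lower members, and turned the split over all probe sets from 6018 higher and 3895 lower to 3897 and 6370. Between 6 h and 16 h, 13 were called, 5 higher and 8 lower, against 38.4% overall (23.7% higher, 14.7% lower). Median centring gave 5 and 12, and 4162 higher and 6977 lower over all probe sets in place of 6476 and 4010. Arrays did not overlap for 11 members between 4 h and 6 h, 13 between 4 h and 16 h and 16 between 6 h and 16 h, where the shares of all tested probe sets were 17.7%, 49.4% and 49.4%. The calls of higher level at 16 h in these comparisons were ELF3 probe sets and dim EHF probe sets only.

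For each gene, the genes whose brightest probe set followed its own brightest one most closely over the 12 arrays are given as a description. The arrays fall into groups, so genes that differ mainly at 16 h in the same direction tend to correlate highly with each other. For ELF3 they were ATF3 and MAFF (Pearson r = 0.98 each over 12 arrays), stress-induced leucine zipper factor genes whose log2 differences from vehicle at 4 h, 6 h and 16 h were 1.04, 0.22 and 2.23 for ATF3 and 1.01, 0.40 and 2.50 for MAFF. For HOXB13 they were HEBP2 and SBNO2 (r = 0.98 each). Such values were not rare: of the 12626 compared genes, 5.12% had an r above 0.9 with HOXB13, 2.79% with ELF3 and 3.22% with EHF. For SPDEF this share was 0.261%, and for the other factors it was lower. For GATA2 they were ANGPTL4 (r = 0.92) and REEP1 (r = 0.89). ANGPTL4, which encodes an inhibitor of lipoprotein lipase, had log2 differences from vehicle of -0.70, -0.08 and -0.41 at the 3 times. For GATA3 they were ROGDI and MAGED2 (r = 0.92 and 0.90), for SPDEF SLCO2A1 and MLEC (r = 0.95 each), and for SOX9 RXYLT1 and XXYLT1 (r = 0.95 and 0.94). For FOXA1 they were PRUNE2 and SRSF5 (r = 0.94 each), for EHF DSN1 and DCLRE1B (r = 0.98 and 0.97), and for GRHL2 CASTOR2 and PEG3 (r = 0.86 each).

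Genes around these factors were described through 5 lists, each gene by its brightest tested probe set. No list had a gene called by limma at 4 h or 6 h. Unadjusted p-values below 0.05 were found there for 5 and 0 paralogs, 5 and 3 partners, 2 and 1 epithelial, 1 and 2 mesenchymal and 1 and 2 luminal target genes. At these times 0.269% and 0.0554% of all 12635 tested genes rose and 0.0712% and 0.0791% fell. At 16 h, 24.7% of all tested genes rose and 15.9% fell. Of the 9 factors by this measure 1 rose and 7 fell. Among these falls, those of FOXA1 and GATA2 did not pass with no filter, with only the groups compared or with some single arrays left out. The brightest probe sets of all 9 were above the 75th percentile of signal. With only probe sets above that percentile tested, 4126 of 13638 rose and 3547 fell. That count is of probe sets, of which a gene can have several, and not of genes.

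Luminal target genes, many of which depend on the androgen receptor in prostate cells, were mostly lower at 16 h. Of 16 tested, 13 fell and 1 rose, with a median log2 change of -0.80 beside 0.05 for all tested genes. SLC45A3, which encodes prostein, fell 7.42-fold (log2 signal 5.03 to 5.27 at 16 h against 7.86 to 8.09, limma adjusted p = 1.8e-09). The prostate kallikrein gene KLK4 fell 6.42-fold (adjusted p = 4.9e-09) and the acid phosphatase gene ACP3 2.87-fold (adjusted p = 1.44e-05). NDRG1, a gene also induced by hypoxia and other stresses, was the one that rose, 2.68-fold (adjusted p = 7.42e-06).

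Epithelial genes moved in both directions at 16 h, with 8 of 32 tested rising, 8 falling and a median log2 change of -0.03. KRT19, a simple-epithelium keratin gene, fell (log2 change -0.99 ± 0.07 SE, limma adjusted p = 7.72e-07), and the tight junction gene CLDN3 fell 1.87-fold (0.000447). ESRP1, an epithelial splicing factor gene, rose 1.46-fold (0.000326), and OVOL1, a zinc finger repressor gene of epithelia, rose 1.53-fold (0.000765). Of 11 tested mesenchymal factors and genes 4 rose and 3 fell. FN1, the fibronectin gene, rose 1.66-fold (0.00128), TGFB2 rose 1.56-fold (0.00642), and TCF4, a basic helix-loop-helix factor gene, fell 1.53-fold (7.38e-05). SNAI2, a repressor of epithelial genes, rose by a log2 change of 0.66 (0.0047) from a dim signal of 1.92 to 2.32, at or below the unspiked control on 2 of 3 vehicle arrays. With the 75th percentile filter, which tests fewer genes, 1 gene of this list rose. Of the fibroblast markers, COL1A1 and LUM were higher and DCN and COL3A1 lower on the 16 h arrays than on vehicle arrays, as given above.

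Of 25 tested paralogs of the 9 factors 7 rose and 6 fell at 16 h, and 3 rose with the 75th percentile filter. ETV5, an ETS gene downstream of growth factor signalling, rose 3.78-fold (limma adjusted p = 7.33e-07), and ETS2 rose 2.01-fold (3.72e-05). ELF5, a further epithelial ETS gene, fell 2.2-fold (6.15e-06), and HOXB5 of the HOXB cluster fell 1.64-fold (0.000528). Of 21 tested partners and cofactors 8 rose and 5 fell. Falls numbered 3 with array weights, without vehicle replicate 1 and without 16 h replicate 1. KLF5, a Krüppel-like factor gene of epithelia, rose 1.97-fold (0.000197), FOXP1 and TCF7L2 rose 1.46-fold each (0.00033 and 0.00507), and PBX3, whose protein binds DNA with HOX proteins, fell 1.95-fold (6.99e-05).

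**Figure D4:**
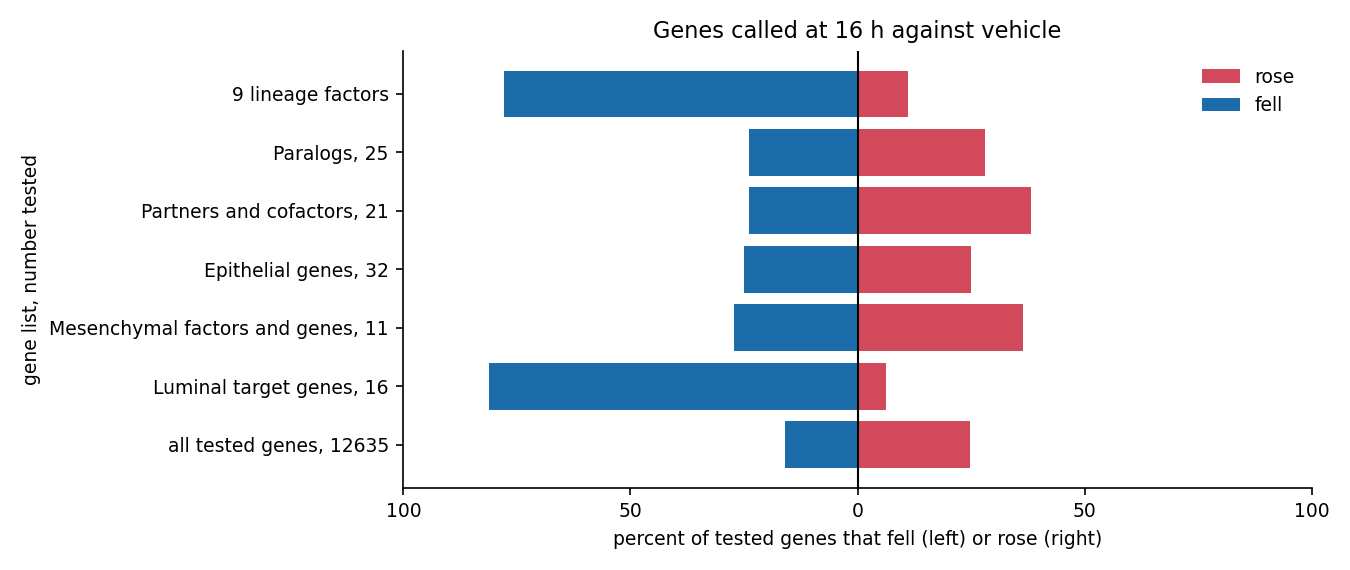
Percent of tested genes that rose (right) or fell (left) at 16 h against vehicle (limma, adjusted p below 0.05) for the 9 factors, 5 lists of related genes and all tested genes; each gene counts once, by its brightest tested probe set. The 9 factors and the luminal target genes extend furthest to the left, at 77.8% and 81.2% fallen against 15.9% of all tested genes. The FOXA1 and GATA2 falls counted here did not pass with no filter or with only the groups compared. The brightest probe sets of the 9 factors all lie above the 75th percentile of signal. With only probe sets above it tested, 3547 of 13638 fell. That count is of probe sets, of which a gene can have several, and not of genes as in the bars.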

How the data were processed

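RNA of 12 samples of 22Rv1 cells was measured on Affymetrix U133 Plus 2.0 arrays after 3' in vitro transcription labelling, per the labels' protocols. The authors deposited log2 signals for 54675 probe sets; GCRMA is named without a version per the submitters' processing notes. Such normalisation hides a change shared by most genes, and the number of arrays limits the precision. Symbols came from the platform annotation, updated through Entrez identifiers against RefSeq (41097 probe sets with 1 symbol, 1801 with several, 11777 not listed). After 62 control probe sets were set aside, the 27306 probe sets with a mean of at least 2.11, the median over all, were tested in 1 limma 3.58.1 model (R 4.3.3) with 4 groups and 6 two-sided comparisons, Benjamini-Hochberg adjusted over all tested probe sets. The code was tested on simulated data. Arrays of 1 group correlated at 0.9949 to 0.9976. Promoters came from RefSeq (GRCh38.p14), which matched 6 of 9 genes.

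The members, lists and motifs were chosen with earlier results of these data known. Named were every member probe set, up to 4 called genes of each list with the largest changes at each time, and the 2 genes most like each member. The lists held 36 paralogs, 30 partners, 36 epithelial, 18 mesenchymal and 18 luminal target genes, of which 25, 21, 32, 11 and 16 were tested; the others were not analysed here. Alternatives changed the filter, the normalisation, the unit tested, the prior, the array weights, the replicate block, the groups in the fit and each array left out.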

Additional observations from a re-analysis of the deposited data

Results flagged for a closer look

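In several member probe sets the change from vehicle differed between 2 treatment times, by the test of the difference itself in the same limma model (adjusted p below 0.05, n = 3 per group). Values are log2 differences.

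At 16 h HOXB13 was lower than at 4 h by -0.80 (230105_at) and -0.99 (209844_at) and lower than at 6 h by -0.96 and -1.25. ELF3 was higher at 16 h than at 4 h by 0.76 on both 210827_s_at and 229842_at, and higher than at 6 h by 1.23, 1.20 and, on 201510_at, 0.67. SPDEF was lower at 16 h than at 6 h by -0.48 (220192_x_at) and -0.49 (213441_x_at). Against 4 h the SPDEF differences were -0.25 (213441_x_at, adjusted p = 0.0479) and -0.38 (213442_x_at, a dim probe set, adjusted p = 0.0257). The first was lost in 7 of 14 alternatives, among them leaving out 4 h replicate 1 (0.175) or 3 (0.118) or 16 h replicate 1 (0.077) or 2 (0.17). The second was lost in 4 of 13, with 4 h replicate 1 (0.102) or 2 (0.0687) or 16 h replicate 3 (0.1) left out and with only the groups compared (0.0671).

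GATA3 was lower at 16 h than at 6 h by -0.39 (209604_s_at), GATA2 by -0.36 (210358_x_at, adjusted p = 0.0308) and SOX9 by -0.36 (202935_s_at, adjusted p = 0.0257). The GATA2 call was lost without 6 h replicate 1 (0.0696) or 2 (0.106) or 16 h replicate 2 (0.126), and with only the groups compared (0.0556). The SOX9 call was lost without 6 h replicate 1 (0.0626) or 2 (0.09) or 16 h replicate 2 (0.0645) or 3 (0.0871).

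By its bright probe set 225645_at, EHF was lower at 16 h than at 4 h by -0.23 and than at 6 h by -0.22. The first of these calls was lost in 3 of 15 alternatives, without 4 h replicate 2 (0.0556) or 3 (0.0502) and with only the groups compared (0.0522). The second was lost in 4 of 15, without 6 h replicate 2 (0.0584) or 16 h replicate 1 (0.0525), with no filter (0.0549) and with only the groups compared (0.0611). Its dim probe sets gave the opposite sign: 224189_x_at 0.80 and 0.69, 219850_s_at 0.62 and 0.78, and 232360_at 0.36 against 4 h alone (adjusted p = 0.0426). The last was lost in 7 of 13 alternatives, among them leaving out 4 h replicate 1 (0.0821) or 3 (0.15) or 16 h replicate 2 (0.162).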

How the results depend on the processing

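The count of called member probe sets against vehicle at 16 h, 16, ranged from 14 to 17 on leaving out single arrays and was 8 with only the brightest probe set of each gene, when 9 were tested. The 16 h falls of FOXA1 204667_at and GATA2 209710_at did not pass with no filter or with only the groups compared. At 4 h the count of 4 became 7 with the 75th percentile filter, 9 with a trended and robust prior, 2 with the brightest probe sets and 2 with only the groups compared, and ranged from 0 to 5 without single arrays. At 6 h the count of 1 became 3 with the trended and robust prior, 2 with array weights, 0 with the brightest probe sets and 0 with only the groups compared, and ranged from 0 to 3 without single arrays. Between 4 h and 6 h it was 2 with the trended and robust prior and 1 with array weights. With the brightest probe sets it was 3 between 4 h and 16 h and 7 between 6 h and 16 h, against 10 and 13. The cause of these differences was not tested, except that the brightest probe sets are fewer. Of 2184 values of single member probe sets under alternatives, 2059 kept their side of the threshold, 69 lost and 56 gained a call, and no called value changed sign. Median centring moved the median difference over all tested probe sets from 0.0455 to -0.095 between 6 h and 16 h and from 0.0424 to -0.0849 between 4 h and 16 h. Over all probe sets at 6 h, 0.681% were called, 0.205% with quantile normalisation and 0.267% with median centring. At 4 h or 6 h, up to 1 gene of the partner and epithelial lists fell under some alternatives.

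Replicate numbers are shared between groups, but same-numbered arrays did not deviate together throughout (r of -0.01 to 0.22 over 18 pairs, 8 of 12 arrays correlating best with their own number), so they were not treated as pairs. The replicate 1 arrays did go together, with r of 0.12 to 0.22 between groups. Each of them correlated negatively with replicates 2 and 3 of the other groups. With the replicate block the counts of members called against vehicle were 3 at 4 h, 2 at 6 h and 16 at 16 h. Over all probe sets the block raised the share called from 0.293% to 0.579% at 4 h and from 0.681% to 1.46% at 6 h. Signals near the unspiked controls limit what the dim EHF, SPDEF, GATA2 and GATA3 probe sets can show.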
